A study of Drosophila melanogaster with 36 samples.

Results

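The genes described here are 108 genes of the pericentric heterochromatin of Drosophila melanogaster, the repeat-rich parts of the chromosome arms next to the centromeres, measured by mRNA sequencing in larval brains. A gene was included when its start in the Ensembl BDGP6 annotation (release 115) lay beyond 22.2 Mb on X, 22 Mb on 2L or 23 Mb on 3L, or below 4.1 Mb on 3R, and when it reached at least 1 CPM (counts scaled to a common library total) in 3 or more of the 36 libraries. Of 17606 genes counted, 209 started inside these bounds and 113 of them reached that level. Marf1 and 4 ribosomal RNA pseudogenes were left out by name. Of the 108 genes, 31 lie on X, 27 on 2L, 41 on 3L and 9 on 3R, and 88 code for proteins. The genes were thus chosen by position and by their CPM in these same libraries. The genes just inside and just outside the position bounds were CG14621 and DIP1 on X, tio and tsh on 2L, RpL10 and nrm on 3L, and CG42402 and Gfat1 on 3R. At the level bound, the CPM that at least 3 libraries reached was 1.14 for lncRNA:CR46482, the lowest inside, and 0.934 for lncRNA:CR46475, the highest outside. A total of 85 genes reached 1 CPM in all 36 libraries.

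Heterochromatin is compacted chromatin, marked by methylation of histone H3 at lysine 9 and bound by heterochromatin protein 1, and it silences most genes that are moved next to it. The genes that normally reside there are an exception: many are essential, some span very long introns filled with transposon remnants, and for several of them, light being the classic case, heterochromatic surroundings are needed for full expression. Lysine 36 of H3 lies in the same tail of the histone and is methylated over transcribed genes, by Set2 for the trimethylated form.

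The study compared brains of wandering last-instar larvae raised at 25 °C in 6 genotypes, each in males and females with 3 replicate libraries. H3.3WTH3.2K36R, in which lysine 36 of the replication-coupled histone H3.2 is replaced by arginine, has H3.3WTH3.2HWT as its control (called the H3.2 control below). H3.3K36RH3.2HWT, with the same replacement in the replication-independent histone H3.3, has H3.3CtrlH3.2HWT as its control (the H3.3 control). Set21 carries a Set2 mutation and is compared with yw. The mutants are called H3.2K36R, H3.3K36R and Set21 here. The labels name genotypes without listing alleles, and they do not say whether a replicate is one brain, a pool or a separate culture, so p-values measure only the spread between these libraries.

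Depth ranged from 82.5 M to 144 M counted reads per library, with a median of 103 M. The neuronal markers elav, nSyb, brp, Syt1 and para summed to 2623 to 3513 CPM in every library, beside 10.8 to 50.7 CPM for 4 muscle and 3.24 to 417 CPM for 4 fat body markers. As a check of the labels, Set2 had group means of 28.9 to 32.1 CPM in Set21 and of 164 to 198 CPM elsewhere. roX2, an RNA of male dosage compensation, had means of 28.1 to 71.2 CPM in male and 1.99 to 10.98 CPM in female groups, the H3.2 control females being at the upper value. roX1, roX2 and msl-2, all higher in males, summed to 638 to 1037 CPM in H3.2 control females, to 237 to 861 CPM in the other female groups and to at least 2041 CPM in males. Whether male larvae were among the H3.2 control females was not tested, and this bears on every comparison with those libraries. His3.3A, an H3.3 gene, had means of 65.6 to 69.4 CPM in both the H3.3 control and H3.3K36R against 249 to 353 CPM in the other genotypes. Between H3.2K36R and its control, summed markers of neural stem cells (dpn, mira, wor and grh) were at 296 to 355 CPM against 433 to 483 CPM over both sexes. The germline markers nos, vas, bam and zpg summed to 27.3 to 45.2 CPM in H3.2K36R against 5.56 to 7.37 CPM. Glial markers (repo, nrv2 and Gs2) summed to 353 to 408 CPM against 439 to 517 CPM. Of these, Gs2 had means of 70.9 against 143 CPM in females and 101 against 167 CPM in males. repo (107 against 115 and 104 against 107 CPM) and nrv2 (195 against 222 and 184 against 210 CPM) differed less. Eye disc markers (ato, gl, sens and eya) summed to 38.9 to 49.3 CPM against 50.9 to 63.99 CPM. The part of these markers in the results on H3.2K36R was not tested, and in tissue samples fewer cells of a type and less RNA per cell cannot be told apart.

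Each comparison was tested with edgeR's quasi-likelihood test in one model over all 36 libraries, and a gene was called at a Benjamini-Hochberg adjusted p under 0.05 over the 12167 genes tested, which include all 108. In H3.2K36R males, 78 of the 108 genes were called, 25 higher and 53 lower, against 25.4% of all genes tested (12.3% higher and 13.1% lower). In H3.2K36R females 60 were called, 27 higher and 33 lower, against 24.8% (11.1% higher and 13.7% lower). H3.3K36R males had 27 called genes, 19 higher and 8 lower, against 9.96% (5.88% higher and 4.08% lower), and H3.3K36R females 20, 15 higher and 5 lower, against 6.35% (3.44% higher and 2.9% lower). Set21 males had 69, 38 higher and 31 lower, against 44.9% (22.9% higher and 22% lower), and Set21 females 59, 43 higher and 16 lower, against 42.4% (20.9% higher and 21.5% lower). A gene with a low level could enter the set through the groups where it was high alone. The 26 genes with a mean under 5 CPM over all 36 libraries are therefore described by their values and not counted as evidence. The 82 genes with a mean of 5 CPM or more, a split chosen after seeing the data, are set beside the 7422 genes of the whole table at that mean. The median level of the 108 genes was 44.4 CPM, against 14.7 CPM over all genes tested. Beyond the bound of 5 CPM the levels were not matched, and the part of level in the shares called was not tested.

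Among those 82 genes, more were lower than higher in H3.2K36R in both sexes. In males 50 were lower and 5 higher, so that 67.1% were called against 29% of all genes at that mean, and the median log2 fold change was -0.15 against -0.02. In females 32 were lower and 7 higher (47.6% against 29.7%), with a median of -0.09 against -0.03. The 30 genes lower in both sexes make up 36.6% of the 82, and the share over all genes at that mean was 13.2%. In H3.3K36R 9 genes were higher and 8 lower in males (20.7% against 11.6%), and 8 higher and 5 lower in females (15.9% against 6.6%). In Set21 the shares called were close to those of other genes, at 57.3% against 53.5% in males and 46.3% against 49.8% in females, with 16 higher and 31 lower in males and 22 higher and 16 lower in females.

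**Figure D1:**
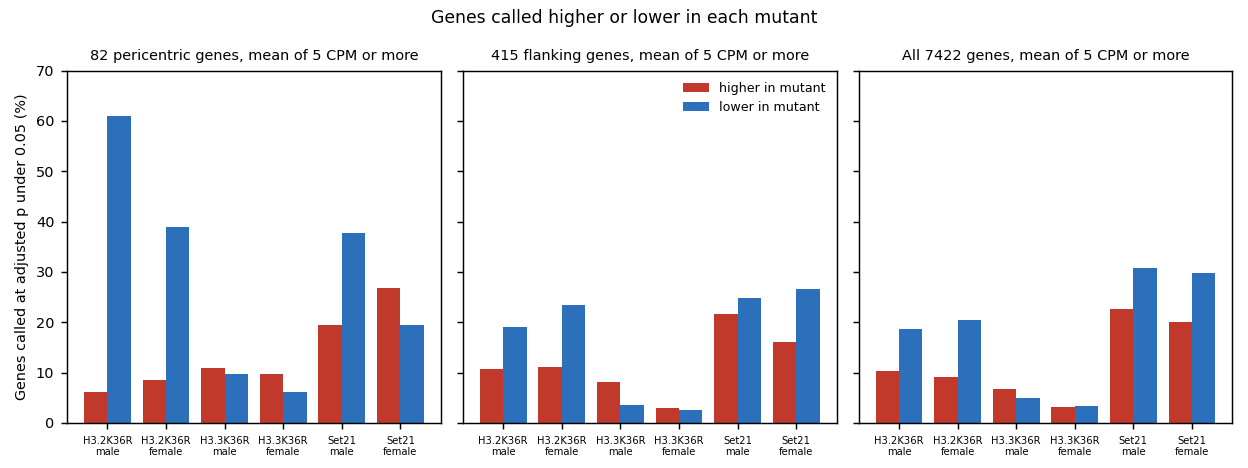
Percentage of genes called higher (red) or lower (blue) in each mutant and sex at an adjusted p under 0.05, for 82 pericentric genes, 415 genes within 2 Mb outside the bounds and all 7422 genes, each with a mean of 5 CPM or more. The bar for lower genes in H3.2K36R males stands at 61% in the pericentric panel and at 19% and 18.7% in the other panels.

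The genes just outside the bounds give the local background. Of the 415 genes with a mean of 5 CPM or more that start within 2 Mb of a bound on its chromosome-arm side, 79 were lower and 45 higher in H3.2K36R males (29.9% called), and 97 were lower and 46 higher in females (34.5%). Chromosome 4, which is largely heterochromatic, had 29 lower and 7 higher of 81 such genes in H3.2K36R males, and 59 lower and 7 higher in Set21 females. For chromosome 4 the other sex of each mutant is not given here, so these counts do not compare the sexes. The decreases in H3.2K36R males were spread over the arms: 13 of 22 genes on X, 11 of 21 on 2L, 22 of 31 on 3L and 4 of 8 on 3R. In females X had 3 lower genes and 4 higher ones, beside 9 lower genes on 2L, 15 on 3L and 5 on 3R. Of the 34 genes that span 10 kb or more, 23 were lower and 4 higher in H3.2K36R males, beside 27 and 1 of the 48 shorter ones. Shares over all genes of the same arm or span are not given here. The counts by arm and span are therefore no result about pericentric genes in particular.

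Parp1, the nuclear poly(ADP-ribose) polymerase, had the smallest adjusted p among the decreases in H3.2K36R. It starts at 3.46 Mb on 3R and spans 126 kb. In males it was at 116, 120.4 and 115 CPM in the 3 H3.2 control libraries and at 57.03, 58.2 and 54.4 CPM in the 3 H3.2K36R libraries. In females the values were 118, 127 and 124 CPM in the control and 67.8, 73.8 and 74.99 CPM in the mutant. Neither sex had any overlap between the groups, and every H3.2K36R library was under every control library. The log2 fold change was -1.05 ± 0.047 (SE, adjusted p = 5.4e-16) in males and -0.77 ± 0.047 (SE, adjusted p = 5.7e-13) in females. In Set21 males, where the libraries held 76.4, 77.5 and 89.4 CPM against 96.6, 103 and 102 CPM in yw, the decrease was smaller, at -0.31 ± 0.047 (SE, adjusted p = 3.7e-06). In Set21 females the difference was -0.07 and did not pass the test.

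Some of the other genes on 3R were lower in H3.2K36R as well. CG41099, which starts at 3.85 Mb, was at 144 to 149 CPM in the 6 H3.2 control libraries and at 96.5 to 107 CPM in the 6 H3.2K36R libraries, with log2 fold changes of -0.59 in males and -0.48 in females. The same gene was lower in Set21, by -0.35 and -0.28 on that scale. Alg-2 had log2 fold changes of -0.34 and -0.24 in H3.2K36R males and females, and Tim17b, a subunit of the mitochondrial inner membrane translocase, of -0.13 and -0.13. On the same arm CG41128 (-0.12 and -0.14), CG42402 (-0.14 and -0.03) and Myo81F (-0.04 and 0.14) did not pass the test in either sex.

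Genes of several cell functions were lower in H3.2K36R in both sexes. Among those for mitochondria, Nubpl, an assembly factor of respiratory complex I, had log2 fold changes of -0.36 in males and -0.33 in females. The complex I subunit gene ND-MLRQ (-0.22 and -0.20) and the complex III subunit gene UQCR-11 (-0.22 and -0.19) fell too. Vps11, a subunit of the complexes that tether vesicles to endosomes and lysosomes, was at -0.29 and -0.27. The cohesin subunit vtd was at -0.15 and -0.19, and the translation factor eIF4B at -0.23 and -0.20. The G protein subunit cta was at -0.23 and -0.19. Nubpl, Vps11 and cta were among 8 genes lower in both sexes of both H3.2K36R and Set21, 9.76% of the 82 genes against 5.51% of all genes at that mean. One of the 8, CG14621, was called in H3.2K36R females at an adjusted p of 0.023 that rose to 0.064 with the replicate block, and that call was lost without replicates 1, 2 or 3 of the H3.2 control or replicate 1 of H3.2K36R (adjusted p up to 0.15). The Set21 female calls of CG17698 and Usp2, also among the 8, were lost without replicates 1 or 3 of Set21 or replicate 2 of yw (adjusted p up to 0.16) and without replicates 1, 2 or 3 of Set21 or replicates 1, 2 or 3 of yw (adjusted p up to 0.25), and that of Usp2 also with DESeq2's size factors (adjusted p = 0.063).

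Several highly expressed genes stayed close to their control levels. The ribosomal protein genes RpL5, RpL10 and RpL21, at means of 1201, 868 and 914 CPM, passed the test in none of the 6 comparisons, with log2 fold changes between -0.08 and 0.08. RpL15 was lower in H3.2K36R males (-0.11) and in Set21 females (-0.14), calls that were lost without replicates 1 or 2 of the H3.2 control or replicate 2 of H3.2K36R (adjusted p up to 0.2) and without replicate 2 of Set21 (adjusted p = 0.054). Set1, a histone H3 lysine 4 methyltransferase, passed in none either, with log2 fold changes between -0.13 and 0.08. Over all 12 groups, the highest group mean of the 82 genes was a median of 1.34 times the lowest, and 54 of them stayed under 1.5 times.

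The 5 genes higher in both sexes of H3.2K36R were fog, CG42346, lncRNA:CR44997, asRNA:CR45009 and lncRNA:CR46483, and the first 4 of these are close together on X. The secreted ligand gene fog had log2 fold changes of 0.28 in males and 0.29 in females of H3.2K36R and of 0.38 and 0.37 in Set21. For asRNA:CR45009, the H3.2 control libraries held 8.42, 9.46 and 8.67 CPM in females against 17.9, 17.8 and 17.5 CPM in H3.2K36R, a log2 fold change of 1.00 ± 0.11 (SE, adjusted p = 3.5e-08), and in males it was 0.56. The male call of lncRNA:CR44997 was lost without replicates 2 or 3 of the H3.2 control or replicates 1 or 2 of H3.2K36R (adjusted p up to 0.18). asRNA:CR45009 is annotated as an antisense RNA, and the sources used here do not state whether the counting used the strand.

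**Figure D2:**
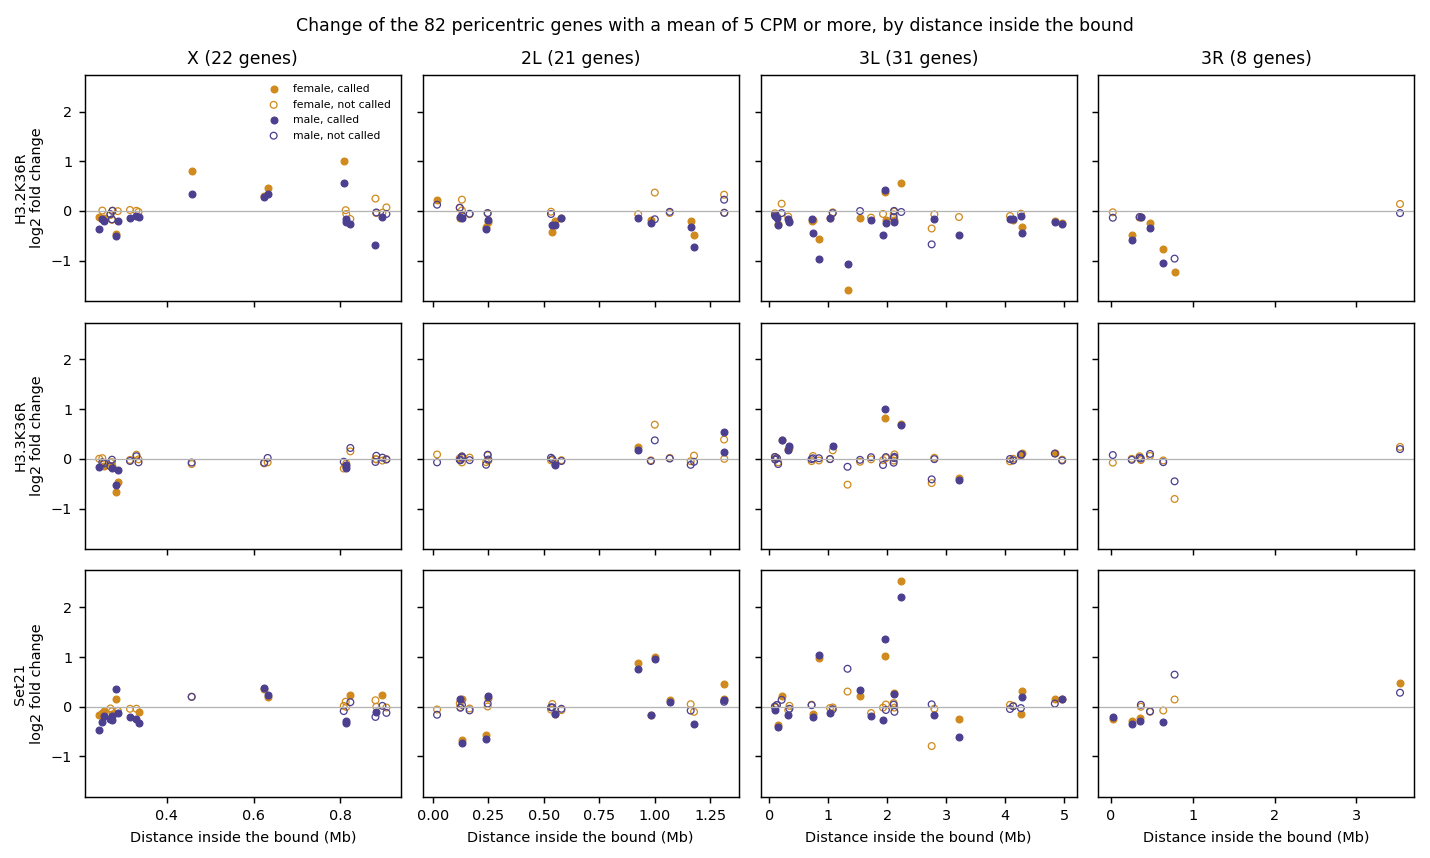
Log2 fold change (vertical axis) against the distance of a gene's start inside the position bound in Mb (horizontal axis). Shown are the 82 genes with a mean of 5 CPM or more. There is one row of panels per mutant and one column per chromosome arm, with females orange and males purple in the same panels. Filled points are called genes. Of the filled male points in the H3.2K36R row, 50 lie under 0 and 5 above it.

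The calls were also counted by distance from the bound. Of the 33 genes within 0.5 Mb of a bound, 18 (54.5%) were lower and 3 (9.09%) higher in Set21 males, and 11 were lower and 4 higher in Set21 females. The 49 genes farther inside had 13 lower and 13 higher (26.5% each) in males, and 5 lower and 18 higher in females. Of all genes at that mean, Set21 called 30.8% lower and 22.7% higher in males, and 29.7% lower and 20.1% higher in females. For H3.2K36R males the same groups held 20 lower and 1 higher genes near the bound, and 30 lower and 4 higher farther inside, against 18.7% lower and 10.3% higher of all genes at that mean. The difference between the distances was not tested, and arms differ in how many genes they place near the bound.

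The gene light (lt), which encodes the Vps41 subunit of the vesicle-tethering HOPS complex and was an early example of a gene that needs heterochromatin around it, had the smallest adjusted p among the increases in Set21 in females and shared it in males with lncRNA:CR46123. It starts at 22.92 Mb on 2L. The yw libraries held 119, 121 and 129.5 CPM in males and 118, 122 and 124 CPM in females. Those of Set21 held 199.9, 209 and 218 CPM and 229.9, 219 and 220.3 CPM. The groups were far apart in both sexes, and the log2 fold change was 0.76 ± 0.033 (SE, adjusted p = 7.7e-17) in males and 0.88 ± 0.033 (SE, adjusted p = 2.4e-18) in females. In H3.3K36R lt was higher by 0.17 (adjusted p = 5.6e-04) and 0.23 (adjusted p = 1.4e-05). In H3.2K36R males it was lower, at -0.14 (adjusted p = 0.0023), and in females the value of -0.07 did not pass.

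lovit, a vesicular transporter gene of photoreceptor synapses, spans 434 kb on 3L and showed the largest increase in Set21 among the 82 genes. It was at 1.62, 1.47 and 1.84 CPM in yw males and 6.601, 7.48 and 8.71 CPM in Set21 males. In females the libraries held 1.88, 1.71 and 1.68 CPM and 11.1, 9.87 and 9.66 CPM. The log2 fold change was 2.21 ± 0.11 (SE, adjusted p = 5.7e-16) in males and 2.54 ± 0.11 (SE, adjusted p = 2.6e-17) in females, with no overlap. It was also higher in H3.3K36R, by 0.67 and 0.70, and in H3.2K36R females, by 0.55. The controls differed for this gene: the H3.2 control stood above yw by 1.37 on the log2 scale.

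**Figure D3:**
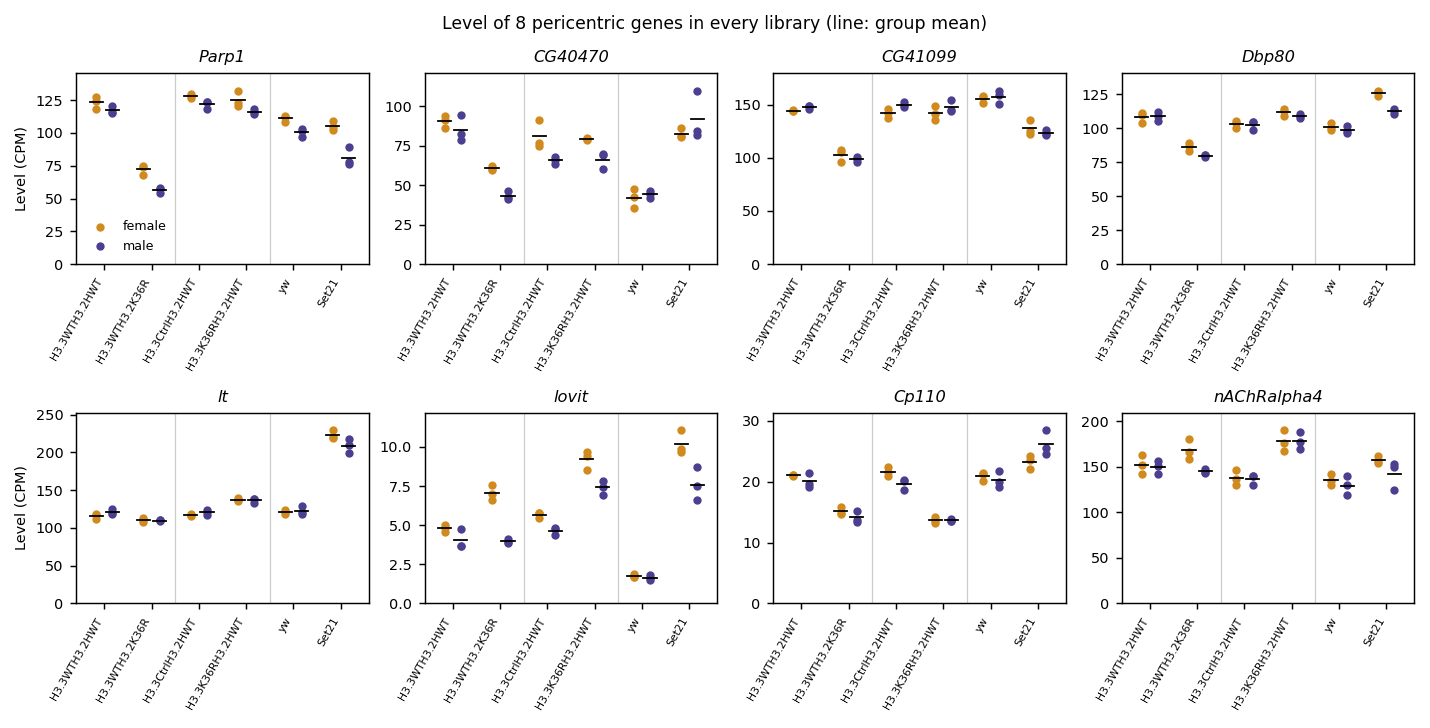
CPM of Parp1, CG40470, CG41099, Dbp80, lt, lovit, Cp110 and nAChRalpha4 in every library (females orange, males purple, line at the group mean) over the 6 genotypes, with one panel and vertical scale per gene. The Parp1 points of H3.2K36R lie under all others, and the lt points of Set21 lie above all others.

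In all, 15 of the 82 genes were higher in both sexes of Set21 and 15 lower, each 18.3%, against 15.8% and 22.5% of all genes at that mean. Cell type markers differed as well: over both sexes, neuronal markers summed to 2623 to 3009 CPM in Set21 against 3185 to 3513 CPM in yw, eye disc markers to 46.8 to 52.3 against 59.9 to 68.2 CPM, and ring gland markers (phm, dib, nvd, sad, Npc1a and Akh) to 446 to 611 against 247 to 394 CPM. In females neural stem cell markers (399 to 431 against 478 to 508 CPM) and glial markers (357 to 391 against 466 to 529 CPM) did not overlap either, while in males both overlapped. Of the glial markers, Gs2 had female means of 46.5 against 135 CPM, repo of 117 against 125 CPM and nrv2 of 213 against 233 CPM. The part of these markers in the Set21 results was not tested. The chitinase gene Cht10 was higher by 0.96 in males and 1.00 in females. MED21, a subunit of the Mediator complex, had log2 fold changes of 0.27 and 0.29, and mRpS5, a protein of the mitochondrial ribosome, of 0.34 and 0.22. At the other end stood Nubpl, at -0.66 ± 0.061 (SE, adjusted p = 7.5e-10) in males and -0.57 ± 0.061 (SE, adjusted p = 1.1e-08) in females, and lncRNA:CR43241, at -0.72 and -0.67. Vps11 fell by 0.42 and 0.36 on the log2 scale in Set21, while lt, a subunit of the same kind of tethering complex, rose. The longest gene, Myo81F, a myosin heavy chain gene that spans 1966 kb, was higher in Set21 females (0.48) and had a value of 0.28 in males that did not pass.

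A group of 5 genes was lower in both sexes of H3.2K36R and higher in both sexes of Set21: CG40470, Cp110, Dbp80, l(3)80Fj and Tif-IA. They are 6.1% of the 82 genes, against 0.903% of all genes at that mean. These mutants have separate controls, and the difference between the H3.2K36R and Set21 responses, averaged over the sexes, was called for each of the 5. The Set21 call of Cp110 in females was lost without replicates 1 or 3 of Set21 or replicate 2 of yw (adjusted p up to 0.1), and that of l(3)80Fj without replicate 3 of Set21 or replicate 1 of yw (adjusted p up to 0.17) in males and without replicate 3 of Set21 or replicates 1 or 3 of yw (adjusted p up to 0.079) in females. Over all 108 genes that difference was called for 65, 11 higher and 54 lower in H3.2K36R. Of all genes tested 41.4% were called (19.9% higher and 21.5% lower). The 82 genes held 9 and 39 of these calls, the rest being genes under 5 CPM. Shares over all genes at 5 CPM or more are not given here for this difference.

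CG40470, on 3L with a span of 147 kb, was at 78.5, 94.2 and 82.1 CPM in H3.2 control males and 46.01, 42.3 and 41.5 CPM in H3.2K36R males. In females the values were 91.1, 93.8 and 86.3 and 60.5, 59.6 and 62.3 CPM. In yw and Set21 males the libraries held 41.9, 44.7 and 46.4 and 109.8, 81.6 and 84.1 CPM. The mutant groups did not overlap their controls, and the 2 controls stood apart, the H3.2 control being higher than yw by 1.02 on the log2 scale. The fold changes were -0.97 ± 0.095 (SE, adjusted p = 5.4e-09) in H3.2K36R males and -0.57 ± 0.094 (SE, adjusted p = 4.0e-05) in females, and 1.05 ± 0.095 (SE, adjusted p = 4.3e-10) in Set21 males and 0.98 ± 0.10 (SE, adjusted p = 2.3e-09) in females. In males the libraries of Set21 overlapped those of the H3.2 control, and those of H3.2K36R overlapped those of yw, whereas in females H3.2K36R stayed above yw, at 35.8, 47.4 and 42.8 CPM.

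For Dbp80, a DEAD-box RNA helicase gene of mRNA export that spans 143 kb on 3L, the controls differed less than for CG40470, the H3.2 control being higher than yw by 0.12 on the log2 scale. Males of the H3.2 control held 112, 105 and 109 CPM and those of H3.2K36R 80.5, 78.5 and 79.9 CPM. Males of yw held 96.3, 98.1 and 102 CPM and those of Set21 111, 113 and 114 CPM. Neither mutant overlapped its own control, while the Set21 males overlapped the H3.2 control males. The log2 fold changes were -0.45 ± 0.033 (SE, adjusted p = 1.5e-11) in H3.2K36R and 0.19 ± 0.032 (SE, adjusted p = 2.3e-05) in Set21 males, and -0.33 and 0.32 in females. Tif-IA, the initiation factor of RNA polymerase I that drives ribosomal RNA synthesis, had log2 fold changes of -0.18 and -0.21 in H3.2K36R and of 0.22 and 0.18 in Set21.

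**Figure D4:**
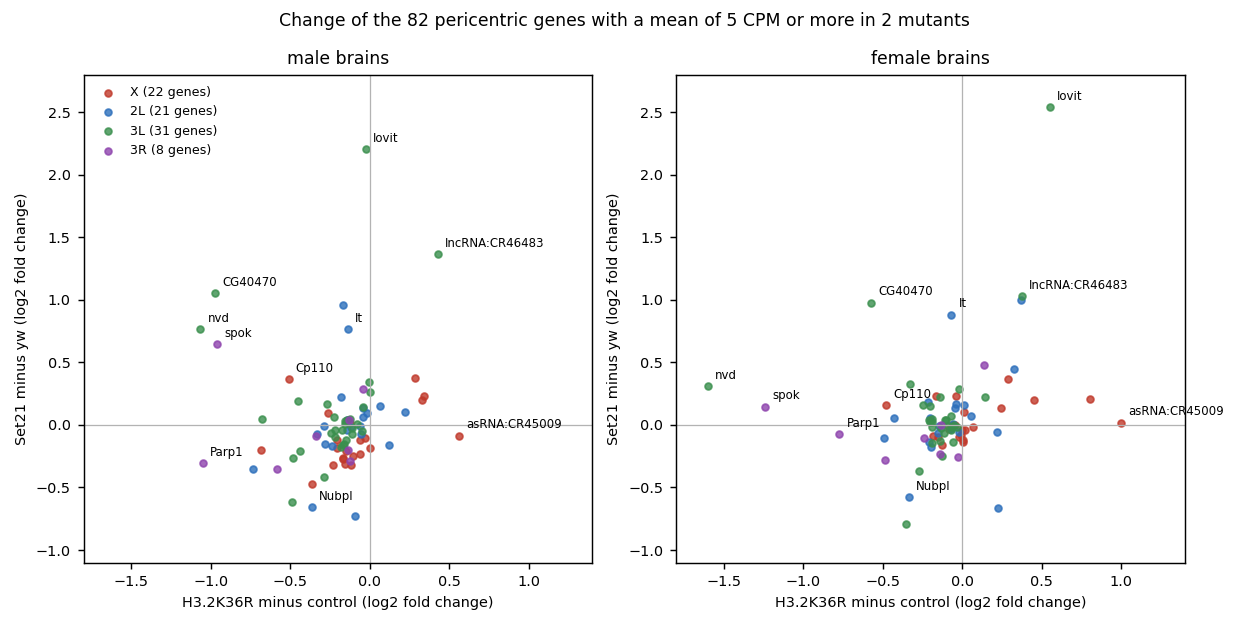
Log2 fold change in Set21 against yw (vertical axis) and in H3.2K36R against the H3.2 control (horizontal axis) for the 82 genes with a mean of 5 CPM or more, males and females in separate panels, coloured by chromosome arm. In the male panel lovit is highest on the vertical axis, at 2.21, followed by lncRNA:CR46483 at 1.36 and CG40470 at 1.05, while Parp1 lies at -1.05 on the horizontal axis.

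Fewer of these genes were called in H3.3K36R. Cp110, which encodes a protein that caps centrioles, was lower there as in H3.2K36R. Its libraries held 20.3, 20.1 and 18.6 CPM in H3.3 control males and 13.6, 13.6 and 13.9 CPM in H3.3K36R males, and 21.5, 22.3 and 20.9 and 14.3, 13.5 and 13.3 CPM in females. The groups did not overlap, with log2 fold changes of -0.52 ± 0.058 (SE, adjusted p = 1.8e-07) and -0.66 ± 0.058 (SE, adjusted p = 2.0e-09). In H3.2K36R Cp110 was at -0.51 and -0.48, and in Set21 it was higher, at 0.37 and 0.16. The other genes lower in both sexes of H3.3K36R were CG12576, CG40160 and l(1)G0196, a kinase gene of inositol phosphates, at -0.23 in males and -0.46 in females. The female call of CG40160 was lost without replicate 2 of H3.3K36R (adjusted p = 0.095).

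Among the 6 genes higher in both sexes of H3.3K36R, nAChRalpha4, a nicotinic acetylcholine receptor subunit gene, was at 131, 140.3 and 140.4 CPM in control males and 170.03, 177 and 188 CPM in mutant males. Females held 137, 130.01 and 146 and 167, 176 and 191 CPM. There was no overlap, and the log2 fold change was 0.38 ± 0.069 (SE, adjusted p = 3.3e-04) in males and 0.37 ± 0.069 (SE, adjusted p = 5.1e-04) in females. The complex I gene ND-MLRQ, lower in H3.2K36R, was higher here by 0.27 and 0.22, and the groups overlapped in females, where the call was lost without replicate 3 of H3.3K36R (adjusted p = 0.073). alpha-Cat, the adherens junction catenin, had log2 fold changes of 0.19 and 0.20. Its calls were lost without replicates 1, 2 or 3 of the H3.3 control or replicates 2 or 3 of H3.3K36R (adjusted p up to 0.22) in males and without replicates 1 or 2 of the H3.3 control or replicate 3 of H3.3K36R (adjusted p up to 0.38) in females. The remaining 3 genes were lt, lovit and lncRNA:CR46483. Snap25, a SNARE protein of synaptic vesicle fusion, was higher in H3.3K36R males (0.26) and had a value of 0.17 in females that did not pass. The share of the 82 genes higher in both sexes was 7.32%, against 2.44% of all genes at that mean. The count of 8 higher genes in females became 4 without replicate 3 of H3.3K36R. Summed glial markers were at 559 to 574 CPM in H3.3K36R males against 411 to 452 CPM in their control. That difference lay in Gs2, with means of 247 against 117 CPM, while repo (108 against 109 CPM) and nrv2 (209 against 208 CPM) were alike. Eye disc markers summed to 48.6 to 59.1 against 67.02 to 83.8 CPM in the same males. The part of these markers in the H3.3K36R results was not tested.

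Genes of steroid hormone synthesis varied between replicates. nvd (neverland) and spok (spookier) encode enzymes at the start of ecdysone synthesis in the ring gland, which is attached to the brain. In females nvd was at 16.3, 18.7 and 18.5 CPM in the H3.2 control and 7.15, 6.94 and 3.57 CPM in H3.2K36R, with no overlap and a log2 fold change of -1.60 ± 0.35 (SE, adjusted p = 0.0013). In males the values were 17.6, 23.02 and 9.86 CPM and 6.701, 10.7 and 6.81 CPM, which overlap, with a log2 fold change of -1.07 ± 0.35 (SE, adjusted p = 0.024) whose call was lost without replicates 1 or 2 of the H3.2 control or replicates 1 or 3 of H3.2K36R (adjusted p up to 0.15). spok was lower in females, at 114, 131 and 116 CPM against 68.8, 55.02 and 28.9 CPM (-1.24 ± 0.37 (SE, adjusted p = 0.013)), a call lost without replicate 3 of H3.2K36R (adjusted p = 0.094), and did not pass in males (-0.96, adjusted p = 0.052). For other genes of the ring gland, group means in females went, from the H3.2 control to H3.2K36R, from 129 to 93.8 CPM for phm, from 94.9 to 51.3 CPM for sad, from 7.33 to 4.29 CPM for dib and from 19.2 to 10.3 CPM for Akh, while Npc1a was at 286 and 284 CPM. In males the means were 115 and 118 CPM for phm, 85.9 and 68.5 CPM for sad, 6.06 and 6.19 CPM for dib and 15.6 and 13.4 CPM for Akh. Their part in the result was not tested.

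At the low end of expression are most of the 8 genes that were higher in both sexes of all 3 mutants: AGO3, Ir40a, CG34031, CR40354, CR40450, lncRNA:CR45177, lncRNA:CR46483 and pre-rRNA:CR45856. All but lncRNA:CR46483 had means under 5 CPM, and such genes had to be high somewhere to be included, so their number is no result. CR40354 and CR40450 are annotated as pseudogenes and pre-rRNA:CR45856 as a ribosomal RNA precursor, so that reads may be shared with near-identical copies. lncRNA:CR46483, which does not depend on the level bound, was at 26.1, 25.4 and 25.8 CPM in H3.3 control males and 50.9, 58.3 and 45.5 CPM in H3.3K36R males. It was at 14.2, 12.2 and 10.5 CPM in yw males and 31.5, 30.6 and 32.8 CPM in Set21 males. The mutant libraries were all higher, with log2 fold changes of 1.00 ± 0.089 (SE, adjusted p = 2.1e-09) and 1.36 ± 0.091 (SE, adjusted p = 9.5e-13), and its smallest change was in H3.2K36R, at 0.43 in males and 0.38 in females. The controls differed for this gene, the H3.2 control being higher than yw by 1.28 on the log2 scale. In males the H3.2 control had a mean of 30.5 CPM, beside 31.6 CPM in Set21.

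AGO3 encodes an Argonaute protein of the germline piRNA pathway, which silences transposons, and spans 135 kb on 3L. It was at 1.17, 1.21 and 1.21 CPM in H3.2 control males and 5.77, 6.26 and 5.25 CPM in H3.2K36R males. In yw and Set21 males it was at 0.726, 0.709 and 0.691 and 3.35, 5.07 and 4.63 CPM. The mutants lay above every library of their controls, with log2 fold changes of 2.26 ± 0.16 (SE, adjusted p = 9.0e-12) in H3.2K36R males, 1.30 ± 0.15 (SE, adjusted p = 2.5e-07) in H3.2K36R females, 2.62 ± 0.16 (SE, adjusted p = 2.4e-13) in Set21 males and 2.59 ± 0.16 (SE, adjusted p = 3.4e-13) in Set21 females. In H3.3K36R the values were 1.69, 2.201 and 2.36 CPM in control and 2.64, 3.71 and 2.49 CPM in mutant males, and the log2 fold changes of 0.50 and 0.62 lost their calls without replicates 1 or 2 of the H3.3 control or replicate 2 of H3.3K36R (adjusted p up to 0.32) in males and without replicate 3 of the H3.3 control (adjusted p = 0.06) in females. The 4 germline markers named above rose with AGO3 in H3.2K36R, whereas in Set21 their sums of 2.48 to 3.201 CPM overlapped the 2.57 to 3.63 CPM of yw. In H3.3K36R they summed to 12.1 to 17.1 CPM, against 8.34 to 11.8 CPM in its control. Most of that difference lay in bam, with means of 9.37 against 5.47 CPM in females and 10.4 against 5.88 CPM in males. zpg was higher too, at 0.355 against 0.0928 CPM and 0.464 against 0.15 CPM. nos was at 0.238 against 0.247 CPM in females and 0.272 against 0.282 CPM in males. vas was at 4.47 against 4.12 CPM and 3.38 against 3.63 CPM. The part of the germline markers in these results was not tested.

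Ir40a, an ionotropic receptor gene of the antenna, was at 0.363, 0.322 and 0.361 CPM in yw males and 5.66, 6.66 and 7.896 CPM in Set21 males, a log2 fold change of 4.27 ± 0.26 (SE, adjusted p = 1.5e-13). In H3.2K36R it was 2.26 in males and 2.03 in females. CG34031, on 3L, was highest in H3.3K36R, at 7.06, 7.31 and 6.58 CPM in males against 0.195, 0.194 and 0.0931 CPM in the control. It was at 0.662, 0.577 and 0.5698 CPM in H3.2K36R males and 4.04, 4.100 and 2.81 CPM in Set21 males. Its call in H3.2K36R females was lost without replicates 1 or 2 of the H3.2 control or replicate 1 of H3.2K36R (adjusted p up to 0.065). pre-rRNA:CR45856 had no read in the 3 H3.3 control female libraries and 0.659, 0.634 and 0.587 CPM in H3.3K36R females, at least 24-fold higher when the control is set to a floor of 3 reads per library.

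**Figure D5:**
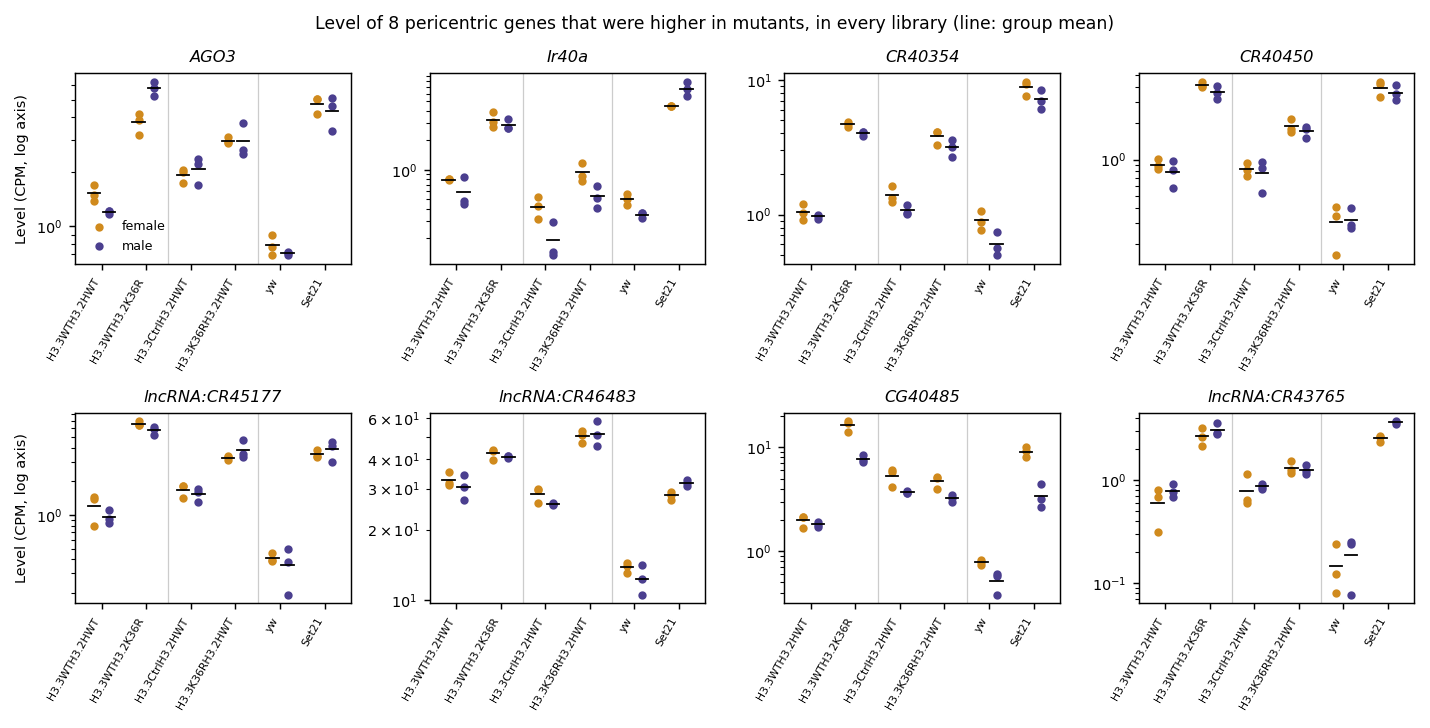
CPM on a log axis of AGO3, Ir40a, CR40354, CR40450, lncRNA:CR45177, lncRNA:CR46483, CG40485 and lncRNA:CR43765 in every library (females orange, males purple, line at the group mean) over the 6 genotypes. For AGO3, CR40354, CR40450 and lncRNA:CR45177, the H3.2K36R and Set21 points lie above those of their controls.

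Other low genes were higher in H3.2K36R and Set21. CR12460, a pseudogene of 3L, was at 0.329, 0.442 and 0.204 CPM in H3.2 control males and 2.94, 2.84 and 3.16 CPM in H3.2K36R males, and at 0.714, 0.529 and 0.605 CPM in H3.3K36R males against 0.318, 0.328 and 0.434 CPM in their control. CG40485, on X, had log2 fold changes of 2.10 and 3.04 in H3.2K36R males and females and of 2.72 and 3.54 in Set21. In H3.3K36R its values of -0.20 and -0.17 did not pass, and the difference between the H3.2K36R and H3.3K36R responses was 2.76 ± 0.16 (SE, adjusted p = 1.7e-13). Over the 108 genes that difference was called for 68, 23 higher and 45 lower in H3.2K36R, against 28.7% of all genes tested (12.9% higher and 15.8% lower), and the 82 genes at 5 CPM or more held 6 and 43 of these. Between Set21 and H3.3K36R it was called for 61, 39 higher and 22 lower in Set21, against 42.6% (20.6% higher and 22% lower). The 82 genes at 5 CPM or more held 19 of those higher and 22 of those lower. For both differences the rest were genes under 5 CPM, which could enter through the groups where they were high. Shares over all genes at 5 CPM or more are not given here for either difference.

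Differences between controls marked some genes of this set. lncRNA:CR46123, on 3R, was at 7.55 to 9.74 CPM in the H3.3 control and H3.3K36R and at 6.37 to 8.26 CPM in Set21. In the H3.2 control and yw it was at 0 to 0.0195 CPM, and in H3.2K36R at 0.0554 to 0.134 CPM. The yw females had no read, so that Set21 females were at least 222-fold higher at the floor of 3 reads per library. The H3.3 control was thus as high as Set21, and H3.3K36R did not differ from it. Over the 36 libraries its log2(CPM + 0.5) was most like that of asRNA:CR45164 (Pearson r = 0.904), followed by Tif-IA (0.677) and lovit (0.672), a description over libraries that share genotypes. CG17163, on X, was at 47.9 to 54.9 CPM in yw and 44.8 to 59.2 CPM in the H3.3 control, but at 20.2 to 23.3 CPM in H3.2 control females and 3.91 to 9.47 CPM in H3.2 control males.

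Over the 108 genes, 58 were called between the H3.2 control and yw, 35 higher and 23 lower in the H3.2 control, against 39.3% of all genes tested (20.1% higher and 19.1% lower). The 82 genes with a mean of 5 CPM or more held 19 of those higher and 22 of those lower. Between the H3.3 control and the H3.2 control 28 were called, 16 higher and 12 lower in the H3.3 control, against 11.6% (5.51% higher and 6.06% lower). Here the 82 genes held 7 of those higher and 8 of those lower. In both contrasts the rest were genes under 5 CPM, which could enter through the groups where they were high. Shares over all genes at that mean are not given here. These contrasts share libraries with the mutant comparisons, and their values are given here only beside them.

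Males and females of the 3 controls differed in 23 of the 108 genes, 4 higher and 19 lower in males, against 8.14% of all genes tested (3.15% higher and 4.99% lower). Without the H3.2 control the count was 18. On X, 13 of 31 genes were lower and 2 higher in males (48.4% called), and among all X genes tested 33.9% were called. l(1)G0196 was lower in control males, at -0.30 ± 0.023 (SE, adjusted p = 1.7e-10). asRNA:CR45009 was higher, at 1.26 ± 0.062 (SE, adjusted p = 1.6e-14), with 16.3, 16.2 and 16.9 CPM in yw males and 6.696, 6.08 and 5.42 CPM in yw females. The study's title names the male X chromosome, and the Set21 response differed between the sexes in 7 of the 108 genes, all lower in males relative to females, against 3.43% of all genes tested (0.879% higher and 2.55% lower). Of these 7, 6 lie on X: Coa7, CG14621, Rab21, su(f), CG17598 and S6kII. They are 19.4% of the 31 X genes, beside 15.3% of all X genes tested, so that the share on the pericentric X was near that of the whole chromosome. The call of Parp1, was lost without any single one of 10 libraries, and that of S6kII without replicates 3 or 1 of Set21 (adjusted p up to 0.066).

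Coa7, which encodes an assembly factor of cytochrome c oxidase, was at 51.3, 52.1 and 51.4 CPM in yw males and 41.7, 40.3 and 41.6 CPM in Set21 males, and at 50.3, 49.9 and 50.9 and 49.6, 49.02 and 52.3 CPM in females. The males did not overlap and the females did. The log2 fold change was -0.32 ± 0.038 (SE, adjusted p = 4.7e-08) in males and -0.00 in females. su(f), the fly homologue of a subunit of the mRNA cleavage stimulation factor, was at 0.02 in Set21 males and 0.23 in Set21 females, and the second passed the test. The H3.2K36R response differed between the sexes in 1 of the 108 genes, lncRNA:CR46482, a call lost without any single one of 11 of the 12 libraries compared, against 0.0658% of all genes tested (0.0164% higher and 0.0493% lower), with 26 at an unadjusted p under 0.05 and 6 called by DESeq2. For H3.3K36R edgeR called 0 against 0.181% (0.132% higher and 0.0493% lower), with 5 at an unadjusted p under 0.05 and 1 called by DESeq2. More genes were called lower in H3.2K36R males (50 of the 82) than in females (32), but for none of these 82 was the difference between the sexes itself called by edgeR. DESeq2 called 3 of the 82 lower in males relative to females, and edgeR called up to 2 when a single library was left out.

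A list of 46 genes, none of them among the 108, was set beside them, of which 45 were found and 44 tested. It holds genes for proteins of heterochromatin and centromeres, telomere caps (cav, HipHop, ver, moi and tea), general chromatin factors such as Hdac1 and Top2, and Sgs1, a salivary glue gene at 0.20 CPM. In H3.2K36R 8 were higher and 13 lower in males, and 5 higher and 19 lower in females, with a median log2 fold change of -0.07 in each sex against 0.00 for all genes tested. All genes tested were 12.3% higher and 13.1% lower in these males and 11.1% and 13.7% in these females. In H3.3K36R 4 were higher and 2 lower in males (all genes 5.88% and 4.08%) and 3 higher and 1 lower in females (3.44% and 2.9%). In Set21 12 were higher and 13 lower in males (all genes 22.9% and 22%) and 9 higher and 15 lower in females (20.9% and 21.5%). The gene for heterochromatin protein 1a was at a mean of 377 ± 8.96 CPM (SD, n = 3) in H3.2K36R males and 432 ± 7.63 CPM in the H3.2 control, a log2 fold change of -0.19, and at -0.20 in Set21 males. HP5 was lower in Set21, at -0.59 in males and -0.28 in females. The germline gene rhi, whose protein binds piRNA source loci, was higher in H3.2K36R (3.31 and 3.44) and in H3.3K36R (1.35 and 1.67). piwi, another Argonaute gene of the piRNA pathway, was higher in H3.2K36R (0.95 and 0.82) and in Set21, by 1.67 in females.

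Beyond what the choice used, the set stood apart in length. The median gene span was 6.27 kb, against 2.40 kb over the genes tested that the annotation places, and 10 of the 108 genes (9.26%) span 100 kb or more, against 0.743%. These are Parp1, CG40470, Dbp80, AGO3, lovit, Snap25, l(3)80Fg, Myo81F, CG40006 and lncRNA:CR44997. AGO3 and CG40006, which rose in males of both H3.2K36R and Set21, had means under 5 CPM. AGO3 reached the level bound in control libraries alone, as given above. As genes at low levels, both are described by their values and not counted. In H3.2K36R males Parp1, CG40470, Dbp80 and l(3)80Fg fell, and 3 genes did not pass the test. lncRNA:CR44997 rose there, a call that was lost when single libraries were left out, as given above. In Set21 males lovit, CG40470 and Dbp80 rose, Parp1 and l(3)80Fg fell, and 3 did not pass. Females differed in part. There l(3)80Fg passed in neither H3.2K36R (-0.07) nor Set21 (-0.04), and Parp1 did not pass in Set21. lovit was higher in H3.2K36R females, and Myo81F in Set21 females.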

How the data were processed

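Brain RNA was selected for polyA, and the library kit was KAPA's stranded kit for mRNA, read as paired ends of 100 bp, per the labels. The deposited table holds raw counts per gene, which the authors made with STAR 2.7.2a and Subread 2.0.3, per the submitters' processing notes. The sources used here do not give the genome build, the annotation or the strand setting of the counting. Ensembl BDGP6 release 115 placed 17527 of the 17606 gene identifiers, and 79 did not match. Among counts from 1 to 4, 79.2% to 85.1% were even, so a pair of reads mostly counted as 2. Of the 108 genes, 52 overlap another annotated gene, and shared reads cannot be assigned from these counts. Depth was 82.5 M to 144 M reads per library.

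The 12 groups were fitted together with edgeR 4.0.16 (TMM scaling, the filterByExpr filter, quasi-likelihood F test, two-sided) under limma 3.58.1 and R 4.3.3, and p-values were Benjamini-Hochberg adjusted over 12167 genes. Levels are CPM with TMM-scaled library sizes. A fold against groups with no read uses a floor of 3 reads per library, which covers counting error only. The alternatives were DESeq2 1.42.0, its size factors within edgeR, no filter, a level bound on the mean, the compared libraries alone, fewer controls or 1 sex for the control contrasts, a replicate block, and each replicate left out. The numbering was checked by correlating deviations from group means. Same-numbered H3.2K36R and H3.2 control females had r of 0.34, 0.11 and 0.19, and were taken as paired by the data, the labels being silent. Replicate 2 of these H3.2K36R females was more like a control library of another number, so this pairing is not settled. Males and females of the H3.2 control (0.28, 0.14 and 0.21) were taken as paired too, and the other pairs were not. On counts simulated for H3.2K36R males with 11936 genes, 95% of 100 genes changed by 1 on the log2 scale and 83% of 100 changed by 0.5 were called, as were 6 of 11736 unchanged ones. These counts were drawn from the fitted dispersions and held far fewer changed genes than the data. They held no change smaller than 0.5, so they do not show how often smaller changes are called.

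The genes and the lists were chosen with earlier results of these data known. Named genes were a set of well-known residents, the 5 largest rises and falls per comparison without overlap at 5 CPM or more with up to 2 unnamed annotation numbers each way, the 3 smallest p-values of each difference of responses and control contrast, the genes changed alike in all mutants, those nearest the bounds, and up to 4 of the heterochromatin protein list per comparison. Further genes were named after their values were seen.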

Additional observations from a re-analysis of the deposited data

Results flagged for a closer look

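The H3.2K36R and Set21 responses differed between males and females in 8 cases, by edgeR's quasi-likelihood test of the difference of the responses with Benjamini-Hochberg adjustment over all genes tested. Of these 8, 6 are Set21 responses of genes on X. Coa7 had a male minus female difference of -0.322 in the log2 fold change (adjusted p = 3.4e-04), with -0.32 in males and -0.00 in females. For Rab21, a small GTPase gene of endosomes, it was -0.379 (adjusted p = 0.0016), with -0.28 in males and 0.10 in females. For CG14621 it was -0.311 (adjusted p = 9.5e-04), with -0.47 and -0.16. For CG17598 it was -0.222 (adjusted p = 0.0026), with -0.32 and -0.10. For su(f) it was -0.214 (adjusted p = 0.0017), with 0.02 and 0.23. For S6kII, a ribosomal S6 kinase gene, it was -0.21 (adjusted p = 0.014), with -0.25 and -0.04, and the call was lost without replicate 3 of Set21 females or replicate 1 of Set21 males (adjusted p up to 0.066).

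Away from X, Parp1 on 3R had a difference of -0.234 between its Set21 responses (adjusted p = 0.044), with -0.31 in males and -0.07 in females, and the call was lost without any single one of 10 of the 12 libraries (adjusted p up to 0.16). lncRNA:CR46482 had a difference of 1.84 between its H3.2K36R responses (adjusted p = 0.045), with 2.17 in males and 0.33 in females, and it was the gene nearest to the level bound. That call was lost without any single one of 11 of the 12 libraries and with the replicate block (adjusted p = 0.18). Groups held 3 libraries each, too few for a test of single outlying libraries.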

How the results depend on the processing

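No direction was reversed, and 213 of the 262 calls of named genes held in every setting tried. The block by replicate number changed the count of the H3.2K36R sex difference from 1 to 0. It gave 77 and 62 called genes in H3.2K36R males and females, 24 and 22 in H3.3K36R, and 73 and 60 in Set21. Where the numbers were taken as paired, in H3.2K36R females, the block ended the calls of CG14621 (adjusted p = 0.064) and mRpS5 (0.061). Elsewhere it ended those of AGO3 (0.052) and CR12460 (0.086) in H3.3K36R males and of eIF4B in H3.3K36R females (0.070). It also ended those of Cda4 in H3.2K36R males (0.25) and of lncRNA:CR46482 in the H3.2K36R sex difference (0.18).

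The H3.2K36R sex difference (1 gene) had 0 genes with the level bound on the mean or with no filter, and 6 with DESeq2. That of H3.3K36R (0 genes) had 1 with DESeq2. H3.3K36R females had 12 called genes instead of 20 with the compared libraries alone. The sex difference in controls fell from 23 to 7 with yw only. The H3.3 control against the H3.2 control gave 15 genes in males only and 11 in females only instead of 28, and the H3.2 control against yw gave 37 in females only instead of 58. The settings on compared libraries, yw or 1 sex use fewer libraries.

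Leaving out single libraries gave 67 to 77 called genes in H3.2K36R males, 53 to 60 in females, 20 to 24 and 17 to 22 in H3.3K36R, and 62 to 71 and 52 to 56 in Set21. The sex difference of the response ranged from 0 to 3 genes in H3.2K36R, 0 to 1 in H3.3K36R and 5 to 9 in Set21. It was 3 without replicate 1 of H3.2K36R females, and 1 without replicate 3 of the H3.3 control females. The differences between mutants ranged from 62 to 67 (H3.2K36R and Set21), 61 to 69 (H3.2K36R and H3.3K36R) and 57 to 62 (Set21 and H3.3K36R). The control contrasts ranged from 18 to 24 (sex), 51 to 60 (H3.2 control and yw) and 22 to 28 (H3.3 and H3.2 controls).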
